A study of Homo sapiens with 6 samples.

Results

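The genes described here make fatty acids and build them into glycerolipids, the class that includes membrane phospholipids and the triacylglycerol of lipid droplets. They were taken by symbol from a list of 39 genes, chosen with earlier results of these data known. All 39 stood among the 21173 genes of the deposited count table. Of these, 37 had enough reads to be tested and 2, ELOVL2 and THRSP, did not. RNA was sequenced from TPC1, a human papillary thyroid cancer cell line, in 3 libraries of cells with a vector (genotype WT) and 3 libraries of cells overexpressing TFCP2L1 (genotype TFCP2L1 OE), a transcription factor of the CP2 family. The labels give neither the promoter that drives TFCP2L1 nor whether each group is 1 clone. Nor do they state whether the replicates came from different cultures, so the p-values reflect the spread among these 6 libraries alone, and that spread may be technical.

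In the cytosol, citrate and acetate are turned into acetyl-CoA and then malonyl-CoA, which fatty acid synthase joins into a saturated chain. Elongases lengthen this chain, desaturases put double bonds into it, and acyl-CoA synthetases activate it for use. Acyltransferases then load it onto glycerol phosphate to give phosphatidic acid, diacylglycerol and triacylglycerol. The factor SREBP1, encoded by SREBF1, switches on many of these genes, and tumour cells often run the pathway at a high rate.

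The libraries held 37928516 to 38987434 reads each, and 17805 to 18102 genes had a read. As a check of the labels, TFCP2L1 itself was counted at 13578, 13885 and 12333 reads in the overexpressing libraries and at 0, 0 and 1 in vector. A two-sided exact permutation test of its CPM cannot go below p = 0.1 with these group sizes, and gave that value. Of 14 thyroid follicular markers, 9 were tabulated and 4 reached 1 CPM, with PAX8 at 524, 571 and 537 CPM in vector and 449, 451 and 532 CPM in TFCP2L1 libraries and thyroglobulin (TG) at no more than 1.49 CPM. Of 8 epithelial markers, 3 reached 1 CPM, KRT8, KRT18 and KRT7, and CDH1 was at most at 0.0266 CPM. Among 8 adipocyte markers only PPARG reached 1 CPM, and the list's summed level was 27.0 to 30.7 CPM in vector and 29.6 to 36.9 CPM in TFCP2L1 libraries. The summed level of 8 fibroblast markers, mostly FBLN1, was 106 to 117 CPM in vector and 80.7 to 89.6 CPM in TFCP2L1 libraries, that of 9 leukocyte markers, mostly CD68, 65.3 to 77.8 and 98.1 to 123 CPM, and that of 6 hepatocyte markers, mostly SERPINA1, 383 to 426 and 170 to 185 CPM. PTPRC and ALB, which define leukocytes and hepatocytes, were at most at 0.186 and 0.0510 CPM. Of the single markers tested, CD68 was higher and SERPINA1, FBLN1 and KRT7 lower (edgeR adjusted p = 0.000476, 2.91e-08, 0.00263 and 0.00180). The summed levels were not tested, nor was any part these markers play in the members' changes. Mitochondrially encoded genes took 5.14%, 6.72% and 5.13% of reads in vector replicates 1 to 3 and 5.19%, 5.80% and 7.59% in TFCP2L1 replicates 1 to 3.

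Several genes of desaturation, acyl-CoA activation and acetyl-CoA or malonyl-CoA supply were lower in TFCP2L1 cells. Most tested members, like most of all tested genes, were not called. Of the 37 tested members, 11 fell and 0 rose by edgeR's quasi-likelihood test at an adjusted p under 0.05, or 29.7% lower, where 7.04% of all 14431 tested genes were lower and 4.68% were higher. Of the 26 members not called, FASN and ME1 (lower) and AGPAT1 (higher) had an unadjusted p under 0.05, and DESeq2 and limma-voom each called 0 members higher and 12 lower, FASN being the one added. The 11 included the desaturase genes FADS3, SCD, SCD5 and FADS1 and the acyl-CoA synthetase genes ACSL1 and ACSL4. The others were ACSS2 and ACLY of acetyl-CoA supply, ACACB of malonyl-CoA supply, the regulator gene SREBF1 and the lipin gene LPIN3. Changes of the 11 were modest, from -0.82 to -0.22 on the log2 scale. Taken by step, 10 of 22 tested genes from acetyl-CoA supply to regulation fell, or 45.5% (median log2 fold change -0.23). The other 12 were not called, among them the 5 tested elongase genes. From phosphatidic acid to the lipid droplet 1 of 15 fell, or 6.67% (median -0.02), near the 7.04% of all tested genes. The median was -0.10 over all 37 members and 0.00252 over all tested genes. Members are not independent of each other, and these counts describe them without a test of the list or of the difference between steps. Because the list was chosen with earlier results known, its share beside that of all genes is a description only.

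**Figure D1:**
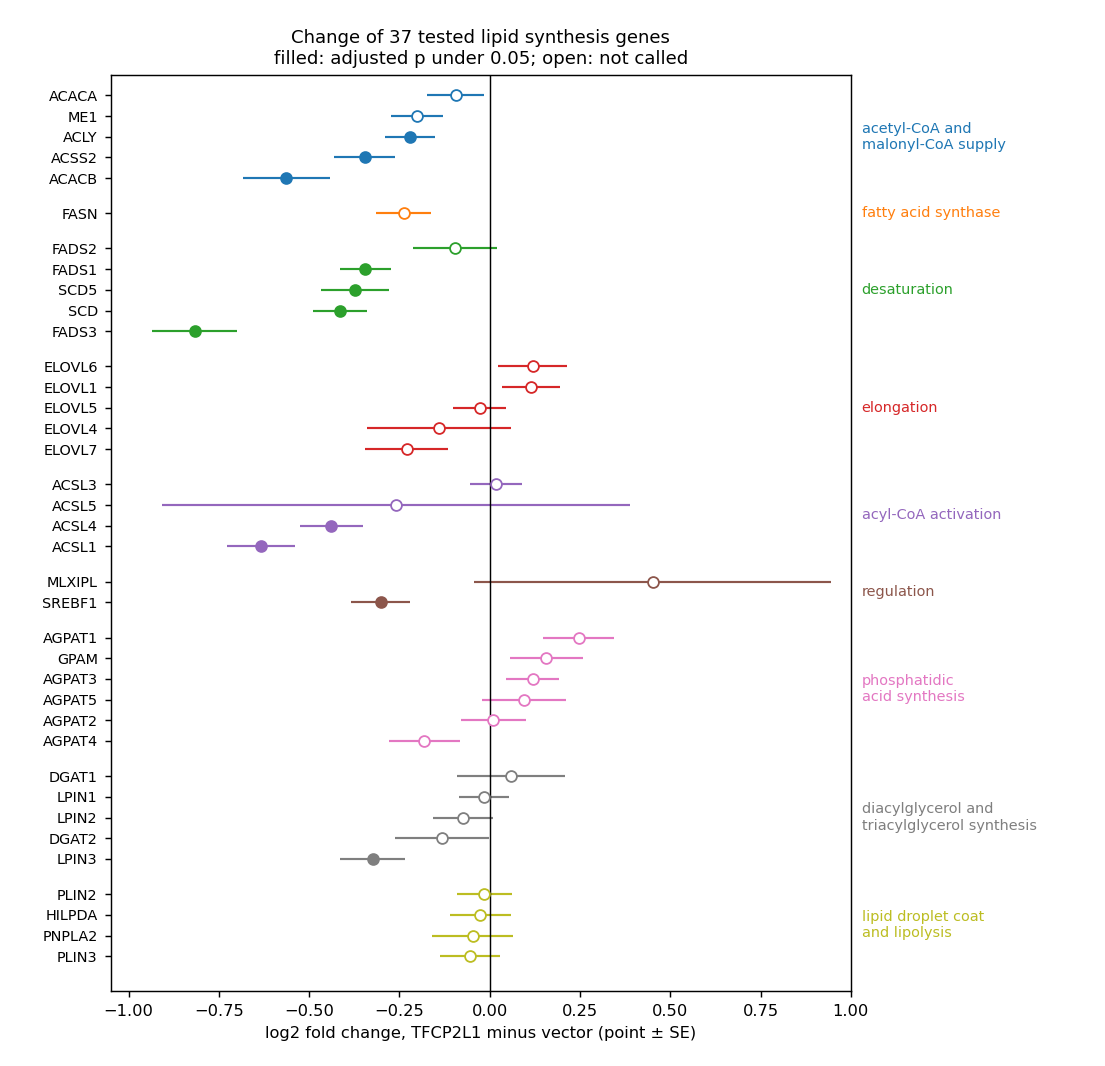
Log2 fold change of the 37 tested genes (x axis, TFCP2L1 minus vector, point ± SE from edgeR), grouped by step of the pathway; filled points had an adjusted p under 0.05. Filled points lie between -0.82 and -0.22, and 10 of the 11 belong to the steps from acetyl-CoA supply to regulation.

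In 13 of the 37 tested members the 3 TFCP2L1 libraries all lay below the 3 vector libraries, against 15.6% of all tested genes, and in 3 they all lay above, against 14.4% (30.0% of all tested genes in either direction). Besides the 11 called genes, the 13 included FASN and ME1, and the 3 were GPAM, AGPAT1 and AGPAT3. Reads of all 39 members made up 0.560% ± 0.00984 (SD, n = 3) of the library in vector cells and 0.492% ± 0.00123 in TFCP2L1 cells. SCD, ACLY and FASN took 45.8% ± 0.757 of the members' reads with vector and 42.5% ± 0.941 with TFCP2L1, so 3 of the 39 genes hold a large part of that share. In bulk RNA, fewer cells that express a gene and less RNA per cell cannot be told apart.

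Acetyl-CoA supply came first. ACLY, ATP citrate lyase, which splits citrate to acetyl-CoA (ENSG00000131473.16, GRCh38 chromosome 17, 41866908 to 41930542, minus strand), was at 640, 648 and 679 CPM in vector and 571, 561 and 555 CPM in TFCP2L1 libraries. The groups did not overlap, and the fall of 0.22 ± 0.07 (SE) on the log2 scale had an edgeR adjusted p of 0.0496. The call depends on the fit: with edgeR's older quasi-likelihood method, which was run first, the adjusted p was 0.0540 and 10 members were lower, without ACLY. ACSS2, which makes acetyl-CoA from acetate (ENSG00000131069.19, chromosome 20, 34872146 to 34927962, plus strand), was at 47.7, 46.4 and 43.5 CPM in vector and 37.8, 35.8 and 34.7 CPM in TFCP2L1 libraries. Every TFCP2L1 library was below every vector library, with a log2 fold change of -0.35 ± 0.09 (edgeR adjusted p = 0.0140). ME1, malic enzyme, a source of the NADPH that synthesis uses, was at 197, 193 and 191 CPM in vector and 161, 180 and 164 CPM in TFCP2L1 libraries, without overlap but not called (-0.20 ± 0.07, edgeR adjusted p = 0.0886).

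The 2 acetyl-CoA carboxylases make malonyl-CoA. ACACA encodes the cytosolic form that feeds synthesis, and ACACB the form at the mitochondrial surface, whose malonyl-CoA restrains fatty acid oxidation. ACACB (ENSG00000076555.15, chromosome 12, 109116595 to 109268226, plus strand) was at 28.2, 34.4 and 31.0 CPM in vector and 20.7, 18.1 and 24.7 CPM in TFCP2L1 libraries. It fell, with a log2 fold change of -0.56 ± 0.12 and an edgeR adjusted p of 0.00537, the largest change among the supply genes. ACACA was at 138, 142 and 147 CPM in vector and 138, 141 and 120 CPM in TFCP2L1 libraries. Its groups overlapped and TFCP2L1 replicate 3 was lowest (-0.09 ± 0.08, 95% confidence interval -0.26 to 0.07, edgeR adjusted p = 0.50).

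FASN, the multifunctional synthase that makes palmitate (ENSG00000169710.8, chromosome 17, 82078333 to 82098332, minus strand), was at 583, 594 and 592 CPM in vector and 528, 451 and 521 CPM in TFCP2L1 libraries. The groups did not overlap, and TFCP2L1 replicate 2 was lowest. The log2 fold change of -0.24 ± 0.08 missed the threshold (edgeR adjusted p = 0.0569) and passed it without TFCP2L1 replicate 3 (0.0318).

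Of the 5 desaturase genes, 4 fell. SCD, stearoyl-CoA desaturase, puts the first double bond into palmitate and stearate (ENSG00000099194.5, chromosome 10, 100347124 to 100364834, plus strand). It was at 1261, 1401 and 1367 CPM in vector and 957, 1013 and 1055 CPM in TFCP2L1 libraries. The lowest vector library stood above the highest TFCP2L1 library, and the gene fell, with a log2 fold change of -0.41 ± 0.08 and an edgeR adjusted p of 0.00168. Its relative SCD5 (ENSG00000145284.11, chromosome 4, 82629539 to 82798857, minus strand) was at 27.1, 29.5 and 26.5 CPM in vector and 21.5, 21.1 and 21.5 CPM in TFCP2L1 libraries. The groups were apart and the TFCP2L1 libraries close together, with a log2 fold change of -0.37 ± 0.10 (edgeR adjusted p = 0.0175).

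The 3 FADS genes lie side by side on chromosome 11. FADS1 and FADS2 encode the delta-5 and delta-6 desaturases of polyunsaturated fatty acid synthesis, and FADS3 a related enzyme. FADS3 (ENSG00000221968.8, 61873519 to 61892051, minus strand) was at 28.6, 27.2 and 23.2 CPM in vector and 16.2, 13 and 15.6 CPM in TFCP2L1 libraries. It fell by 43.3%, and its log2 fold change of -0.82 ± 0.12 was the largest of the called members (edgeR adjusted p = 0.000242). FADS1 (ENSG00000149485.18, 61799625 to 61829318, minus strand) was at 243, 248 and 261 CPM in vector and 205, 196 and 191 CPM in TFCP2L1 libraries. Its groups did not overlap and it fell, with a log2 fold change of -0.34 ± 0.07 and an edgeR adjusted p of 0.00435. FADS2 was at 17.4, 19.4 and 18.2 CPM in vector and 16.6, 15.3 and 19.6 CPM in TFCP2L1 libraries. TFCP2L1 replicate 3 exceeded every vector library, and the gene was not called (-0.10 ± 0.12, 95% confidence interval -0.34 to 0.15, edgeR adjusted p = 0.664). FADS1 and FADS2 lie on opposite strands and share exon bases, 4.8% of those of FADS1 in GENCODE v29, and the labels do not state whether counting used strand.

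**Figure D2:**
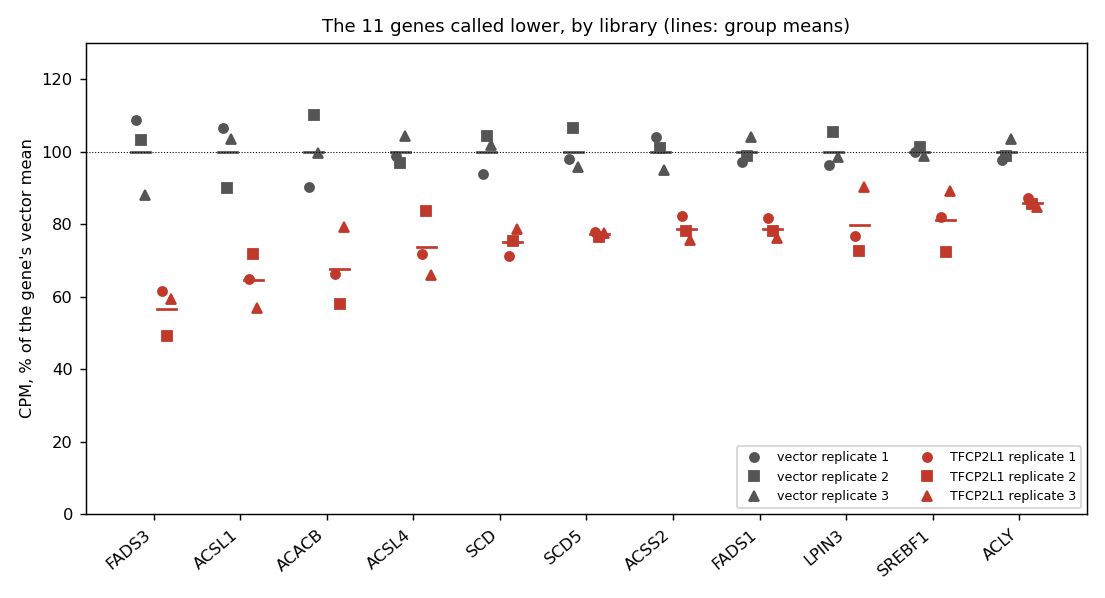
Level in each library of the 11 genes called lower, as a percentage of the gene's own mean in vector cells (y axis, from CPM); grey symbols are vector and red symbols TFCP2L1 libraries, and lines are group means. In each of the 11 genes the 3 TFCP2L1 libraries lie below the 3 vector libraries, and FADS3, ACSL1 and ACACB lie lowest.

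Among elongases 0 of 5 tested genes were called. ELOVL6, which lengthens palmitate to stearate, was at 62.1, 57.6 and 58.9 CPM in vector and 59.0, 75.0 and 60.0 CPM in TFCP2L1 libraries, so that only TFCP2L1 replicate 2 stood above the vector range (0.12 ± 0.10, edgeR adjusted p = 0.485, and -0.000893 without that library). ELOVL5, an elongase of polyunsaturated chains, was at 194, 195 and 203 CPM in vector and 181, 205 and 195 CPM in TFCP2L1 libraries (-0.03 ± 0.07, 95% confidence interval -0.18 to 0.13). ELOVL1, which makes very long saturated chains, was at 127, 140 and 122 CPM in vector and 145, 130 and 147 CPM in TFCP2L1 libraries (0.12 ± 0.08, edgeR adjusted p = 0.407). ELOVL7 and ELOVL4 had log2 fold changes of -0.23 ± 0.11 and -0.14 ± 0.20, with overlapping groups. ELOVL2 had 0 reads in vector libraries and 5, 0 and 0 in TFCP2L1 libraries, too few to test.

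Acyl-CoA synthetases attach coenzyme A to free fatty acids. ACSL1 (ENSG00000151726.13, chromosome 4, 184755595 to 184826818, minus strand) was at 123, 104 and 119 CPM in vector and 74.9, 82.9 and 65.7 CPM in TFCP2L1 libraries. The groups were well apart, and the gene fell by 35.5%, a log2 fold change of -0.63 ± 0.09 (edgeR adjusted p = 0.000304). ACSL4, which prefers arachidonate and is known for its part in ferroptosis (ENSG00000068366.19, chromosome X, 109624244 to 109733403, minus strand), was at 239, 235 and 253 CPM in vector and 174, 203 and 159 CPM in TFCP2L1 libraries. It too had no overlap and fell, with a log2 fold change of -0.44 ± 0.09 and an edgeR adjusted p of 0.00326. ACSL3, an isoform of the endoplasmic reticulum and nascent lipid droplets, was at 203, 206 and 206 CPM in vector and 194, 217 and 211 CPM in TFCP2L1 libraries, with its 95% confidence interval at -0.14 to 0.17 on the log2 scale. ACSL5 was under 0.5 CPM in every library, and its log2 fold change of -0.26 ± 0.65 became 0.11 without vector replicate 3.

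Of the 3 regulators SREBF1 was expressed and the other two were near 0. SREBF1 (ENSG00000072310.16, chromosome 17, 17810399 to 17837002, minus strand) was at 153, 155 and 152 CPM in vector and 126, 111 and 137 CPM in TFCP2L1 libraries. The vector libraries were close together and all above the TFCP2L1 libraries, with a log2 fold change of -0.30 ± 0.08 (edgeR adjusted p = 0.0249). Exons of RAI1 on the other strand cover 6.9% of its exon bases. MLXIPL, which encodes the glucose-responsive factor ChREBP, was at 0.292, 0.398 and 0.343 CPM in vector and 0.359, 0.485 and 0.574 CPM in TFCP2L1 libraries (0.45 ± 0.50, edgeR adjusted p = 0.623). THRSP, a lipogenic gene induced by thyroid hormone in liver and fat, had 0, 0 and 2 reads in vector libraries and 1, 0 and 0 in TFCP2L1 libraries.

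Promoter sequence was examined because genes of several steps fell together. RefSeq promoter entries (GRCh38.p14) were matched by symbol for 33 of the 39 members, in 52 windows of 250 bases before an annotated start site. Windows of 5 genes that fell are printed 5′ to 3′ on the gene's strand, in lower case with capitals for matches to 5 motifs, each searched on both strands. These were TCACNCCAC, a sterol response element bound by SREBP; CACGTG, the E-box of ChREBP and USF; CCAAT, bound by NF-Y; GGGCGG, the GC box of SP1; and a CP2 pair, CCAG followed after 6 bases by CCAG, of the kind TFCP2L1 binds. They are SCD (chr10:100346983-100347232, plus strand), FADS3 (chr11:61891546-61891795, minus strand), ACSL1 (chr4:184805554-184805803, minus strand, 1 of its 5 windows), ACACB (chr12:109116337-109116586, plus strand, 1 of its 2 windows) and SREBF1 (chr17:17836987-17837236, minus strand). For ACSL1 and ACACB the window with a sterol response element or a CP2 pair was chosen.
SCD: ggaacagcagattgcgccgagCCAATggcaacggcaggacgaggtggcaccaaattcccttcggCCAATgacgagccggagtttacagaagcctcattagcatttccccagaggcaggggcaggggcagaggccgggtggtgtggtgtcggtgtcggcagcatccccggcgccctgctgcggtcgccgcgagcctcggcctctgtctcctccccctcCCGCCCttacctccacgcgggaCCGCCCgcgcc
FADS3: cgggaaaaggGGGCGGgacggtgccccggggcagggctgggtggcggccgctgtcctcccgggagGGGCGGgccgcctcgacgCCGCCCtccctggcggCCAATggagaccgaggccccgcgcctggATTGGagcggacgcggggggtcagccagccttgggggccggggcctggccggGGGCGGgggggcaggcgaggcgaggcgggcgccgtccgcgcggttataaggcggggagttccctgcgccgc
ACSL1: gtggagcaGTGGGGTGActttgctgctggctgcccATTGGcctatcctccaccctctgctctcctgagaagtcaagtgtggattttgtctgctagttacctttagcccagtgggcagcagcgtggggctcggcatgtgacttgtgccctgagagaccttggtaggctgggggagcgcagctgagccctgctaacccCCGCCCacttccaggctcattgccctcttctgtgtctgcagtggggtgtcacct
ACACB: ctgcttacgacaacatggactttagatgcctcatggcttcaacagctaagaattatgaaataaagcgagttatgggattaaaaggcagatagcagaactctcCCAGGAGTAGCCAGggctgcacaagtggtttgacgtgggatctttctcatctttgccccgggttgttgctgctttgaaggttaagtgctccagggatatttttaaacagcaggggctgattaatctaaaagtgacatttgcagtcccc
SREBF1: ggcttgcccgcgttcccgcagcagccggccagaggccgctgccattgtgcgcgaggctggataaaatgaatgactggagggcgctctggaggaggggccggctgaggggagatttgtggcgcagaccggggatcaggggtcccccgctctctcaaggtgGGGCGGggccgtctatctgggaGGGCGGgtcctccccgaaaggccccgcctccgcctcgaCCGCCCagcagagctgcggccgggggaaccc

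In these windows the SCD promoter holds 2 CCAAT and 2 GC boxes, the FADS3 promoter 2 CCAAT and 4 GC boxes and the SREBF1 promoter 3 GC boxes, and no matches overlap. The capitals near the upstream end of the ACSL1 window are a sterol response element on the other strand, 242 bases before that start site, followed by a CCAAT box and a GC box. The capitals in the ACACB window are a CP2 pair 148 bases before the start site, and another ACSL1 window has such a pair too. Over all members, the sterol response element was in 2 of 52 windows (ACSL1 and PNPLA2), or 3.85%, against 0.883% of all 35116 windows. The CP2 pair was in 3 windows (ACACB, ACSL1 and LPIN1), or 5.77%, against 3.27%, and the E-box in 4, or 7.69%, against 6.34%. CCAAT was in 40.4% of member windows against 32% of all, and the GC box in 69.2% against 42.6%. The set of all windows was not limited to tested genes, so these shares are not read as a trait of the members. By gene, 28 of the 33 members with an entry had a GC box in some window and 17 a CCAAT box. Of the 10 among these 33 that fell, 10 had a GC box and 7 a CCAAT box. The share by gene was not counted over all genes, so these counts are not read as a trait of the genes that fell. These 5 motifs were kept of 12 patterns searched, and the printed windows were chosen after the matches were seen. Matches are descriptions of the letters, and genes with several windows count more than once.

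Of 6 genes of phosphatidic acid synthesis, 5 had a positive log2 fold change, as had 7283 of all 14431 tested genes, and 0 were called. Among these 5, AGPAT2 and AGPAT5 changed sign in some fits with 1 library left out. GPAM, the mitochondrial acyltransferase that starts glycerolipid synthesis, was at 19.7, 19.5 and 19.8 CPM in vector and 20.3, 23.8 and 21.7 CPM in TFCP2L1 libraries. The TFCP2L1 libraries were all higher, but the log2 fold change of 0.16 ± 0.10 was not called (edgeR adjusted p = 0.366). The AGPAT genes encode enzymes that add the second chain. AGPAT1 was at 49.8, 54.6 and 55.0 CPM in vector and 60.2, 56.4 and 72.6 CPM in TFCP2L1 libraries, without overlap and with TFCP2L1 replicate 3 highest (0.25 ± 0.10, edgeR adjusted p = 0.119, and 0.0440 without TFCP2L1 replicate 2). Exons of EGFL8 and PPT2-EGFL8 on the other strand cover 29.9% of its exon bases, so its level is uncertain if counting ignored strand.

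AGPAT3 was at 90.7, 89.9 and 89.8 CPM in vector and 98.0, 92.8 and 103 CPM in TFCP2L1 libraries, all higher but not called (0.12 ± 0.07, edgeR adjusted p = 0.344). AGPAT2, the isoform mutated in a congenital lipodystrophy, was at 66.5, 69.4 and 64.5 CPM in vector and 71.4, 58.3 and 72.0 CPM in TFCP2L1 libraries (0.01 ± 0.09). AGPAT5 and AGPAT4 had log2 fold changes of 0.09 ± 0.12 and -0.18 ± 0.10, with overlapping groups. AGPAT4 was the one member of this step below 0.

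Lipins turn phosphatidic acid into diacylglycerol. LPIN3 (ENSG00000132793.11, chromosome 20, 41340920 to 41360582, plus strand) was at 63.5, 69.6 and 64.9 CPM in vector and 50.6, 48.0 and 59.6 CPM in TFCP2L1 libraries. It did not overlap and fell, with a log2 fold change of -0.32 ± 0.09 and an edgeR adjusted p of 0.0298, the only call among the 15 tested genes of the glycerolipid steps. Exons of EMILIN3 on the other strand cover 13.5% of its exon bases. LPIN1, the most abundant lipin per gene length, was at 314, 324 and 323 CPM in vector and 309, 328 and 314 CPM in TFCP2L1 libraries, with a 95% confidence interval of -0.16 to 0.13 on the log2 scale. LPIN2 was at 44.1, 48.9 and 44.9 CPM in vector and 44.8, 42.2 and 44.0 CPM in TFCP2L1 libraries (-0.07 ± 0.08).

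DGAT1 and DGAT2 encode the 2 enzymes that finish triacylglycerol. DGAT1 was at 21.4, 29.4 and 21.0 CPM in vector and 26.3, 20.0 and 28.5 CPM in TFCP2L1 libraries, a spread within each group larger than the difference between them (0.06 ± 0.15, 95% confidence interval -0.26 to 0.38). DGAT2 was at 13.4, 15.5 and 12.0 CPM in vector and 12.8, 11.1 and 13.4 CPM in TFCP2L1 libraries (-0.13 ± 0.13). Both had overlapping groups, and in DGAT1 vector replicate 2 stood apart from the other vector libraries. Exons of other genes on the same strand cover 10.9% of the exon bases of DGAT1.

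The 4 lipid droplet members were all near 0, with log2 fold changes from -0.05 to -0.02 and 0 of 4 called. Of 23 further droplet and lipolysis genes, described below, 3 fell and 1 rose. PLIN2, the coat protein of droplets in most cells, was at 193, 188 and 196 CPM in vector and 188, 206 and 176 CPM in TFCP2L1 libraries, and its 95% confidence interval ran from -0.18 to 0.15. PLIN3, a coat protein that moves between cytosol and droplets, was at 166, 145 and 152 CPM in vector and 164, 141 and 142 CPM in TFCP2L1 libraries (-0.23 to 0.12). PNPLA2, the main triacylglycerol lipase, was at 35.7, 41.1 and 33.9 CPM in vector and 32.9, 32.4 and 41.9 CPM in TFCP2L1 libraries (-0.29 to 0.19). HILPDA, a hypoxia-induced inhibitor of that lipase, was at 42.2, 45.2 and 46.1 CPM in vector and 41.2, 45.6 and 44.2 CPM in TFCP2L1 libraries (-0.21 to 0.15). In each the groups overlapped. Exons of other genes on the same strand cover 13.2% of the exon bases of HILPDA. Exons on the other strand cover 17.8% of those of PLIN3 and 10.4% of those of PNPLA2.

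Per gene length, in the deposited FPKM values, SCD was the most abundant member in vector cells at 254 ± 13.1 FPKM (SD, n = 3), followed by ACLY at 143 ± 4.78 and PLIN2 at 83.5 ± 2.30. ELOVL1 (75.8 ± 4.84), PLIN3 (68.5 ± 5.13) and FASN (68.5 ± 0.593) came next, and PLIN3 and FASN differed by less than their spread. SCD exceeded SCD5 (6.48 ± 0.343 FPKM), and FADS1 (54.7 ± 2.08) exceeded FADS3 (11.9 ± 1.25) and FADS2 (5.06 ± 0.257). ACACA (12.3 ± 0.385) stood above ACACB (2.97 ± 0.283), and LPIN1 (47.6 ± 0.715) above LPIN3 (12.1 ± 0.522) and LPIN2 (6.74 ± 0.347). DGAT1 (6.14 ± 1.19) and DGAT2 (5.42 ± 0.667) were within their spread of each other. In TFCP2L1 cells SCD was still first at 194 ± 7.98 FPKM and ACLY next at 125 ± 2.75.

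**Figure D3:**
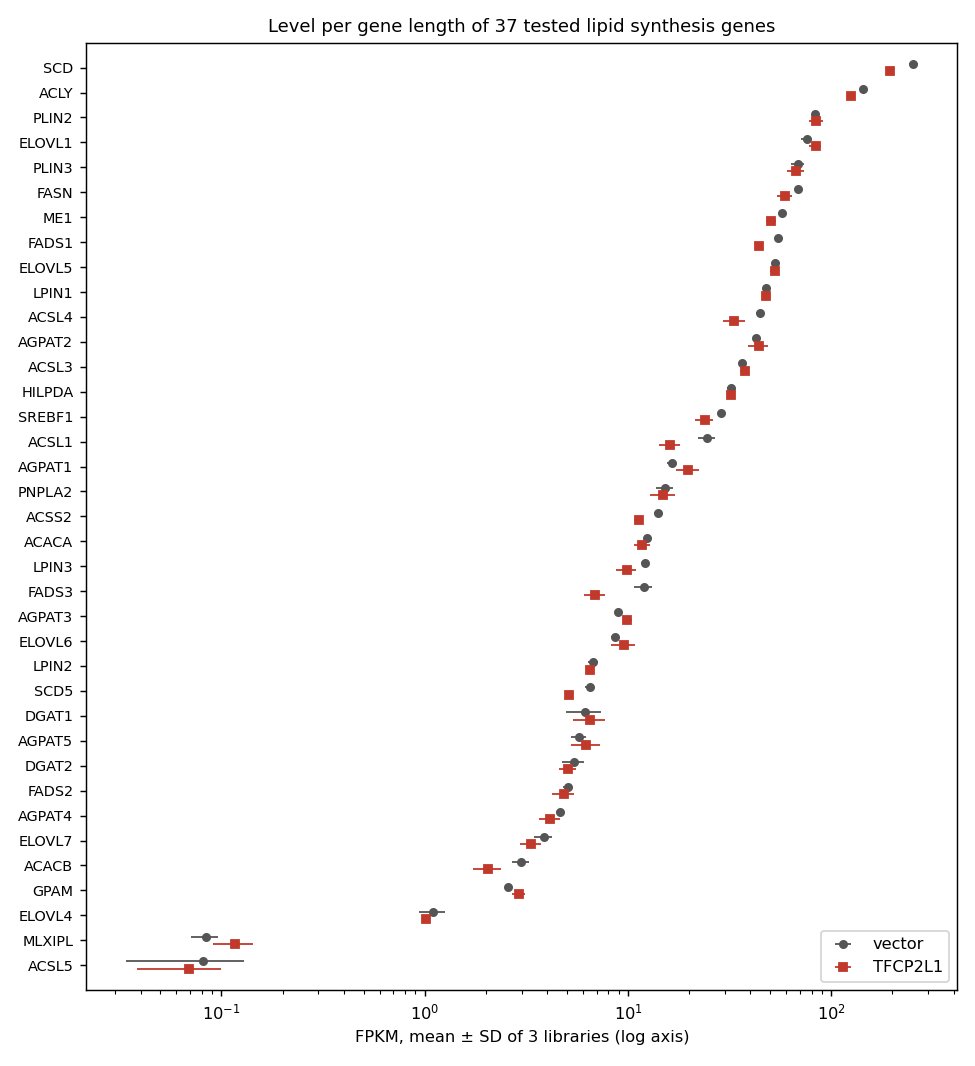
Level per gene length of the 37 tested genes (x axis, deposited FPKM, mean ± SD of 3 libraries, log axis), in order of the vector mean; grey circles are vector and red squares TFCP2L1 cells. Levels run from 254 FPKM for SCD to under 0.1 FPKM for ACSL5 and MLXIPL in vector cells.

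Single libraries decided some of the calls. FADS3, ACSL1, ACACB, ACSL4, SCD and FADS1 stayed called by edgeR without any 1 of the 6 libraries. The call of ACSS2 ended when vector replicate 1 was left out (edgeR adjusted p = 0.0891). For SCD5 the edgeR adjusted p passed 0.05 on leaving out vector replicate 1 (0.0591), vector replicate 2 (0.0874), vector replicate 3 (0.0508) or TFCP2L1 replicate 1 (0.0512). LPIN3 and SREBF1 stayed called only without TFCP2L1 replicate 3, with the adjusted p otherwise at 0.0715 to 0.112 for LPIN3 and 0.0597 to 0.0929 for SREBF1, and ACLY was lost without any 1 library (0.0524 to 0.230). The count of members lower fell to 6 without vector replicate 1 and to 7 without vector replicate 2, vector replicate 3 or TFCP2L1 replicate 1, and it was 9 and 11 without TFCP2L1 replicates 2 and 3. Fewer libraries also mean less power to call a change.

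**Figure D4:**
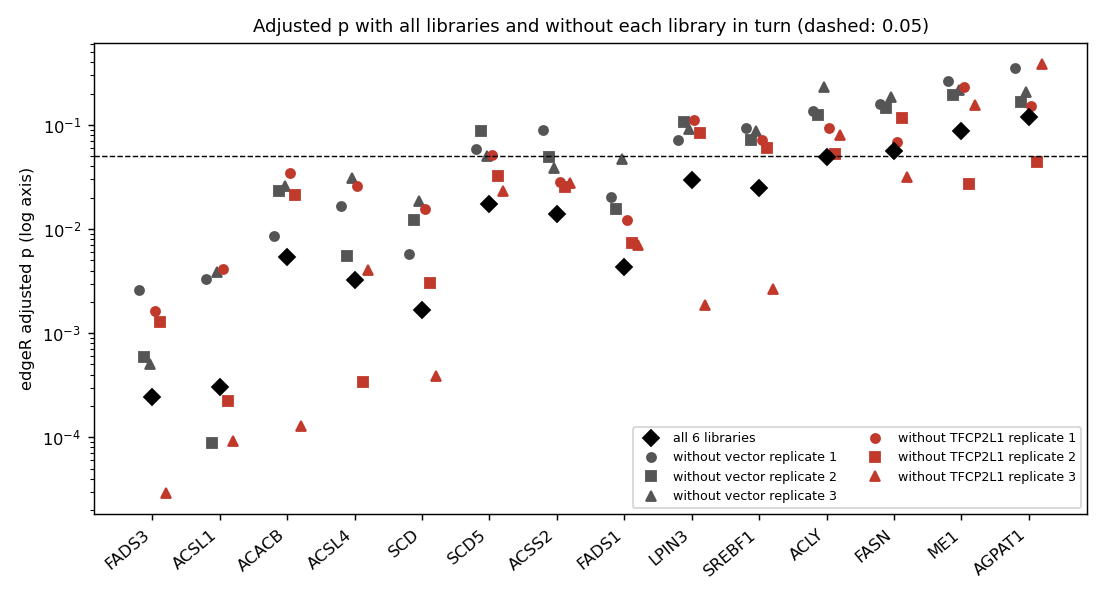
edgeR adjusted p (y axis, log axis) of the 11 called genes and of FASN, ME1 and AGPAT1, with all 6 libraries (black diamonds) and without each library in turn (grey, a vector library left out; red, a TFCP2L1 library left out). The dashed line is 0.05: all points of FADS3, ACSL1, ACACB, ACSL4, SCD and FADS1 lie below it, and those of SCD5, ACSS2, LPIN3, SREBF1 and ACLY lie on both sides.

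Vector replicate 2 and TFCP2L1 replicate 3, which had the largest shares of mitochondrially encoded reads in their groups, also set the highest value in both groups for 11 of the 37 tested members, or 29.7%, against 21.4% of all tested genes. These members were SCD, ACACB, FADS2, ELOVL1, SREBF1, MLXIPL, AGPAT2, LPIN3, DGAT1, DGAT2 and PNPLA2, and another 5, ACSL1, ACSL4, ELOVL7, AGPAT5 and PLIN2, were lowest in both, or 13.5% against 20.6% of all tested genes. With these 2 libraries left out together, an alternative added after seeing the data, 8 members were called lower and 0 higher.

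Other genes of lipid metabolism, from 6 lists of 197 genes, had 11 of 164 tested genes that fell (6.71%, against 7.04% of all tested genes) and 5 that rose (3.05%, against 4.68%). Among 25 further genes of fatty acid synthesis, transport and binding, 2 fell and 1 rose. ACSF2, a mitochondrial acyl-CoA synthetase gene, fell from 7.90 ± 0.589 to 4.75 ± 0.565 CPM (SD, n = 3; edgeR adjusted p = 0.00530). The genes of 2 dehydratases of the elongation cycle went apart: HACD1 had a log2 fold change of -0.57 ± 0.15 and HACD2 of 0.32 ± 0.09 (edgeR adjusted p = 0.0244 and 0.0360). The call of HACD1 depended on vector replicates 1 and 2 and TFCP2L1 replicate 1, each of which ended it when left out, and that of HACD2 without any 1 vector library or TFCP2L1 replicate 3. Of 20 genes of citrate and NADPH supply, ME3 (-0.62 ± 0.18) and ACO1 (-0.28 ± 0.08) fell and the citrate synthase gene CS rose (0.23 ± 0.07), with edgeR adjusted p from 0.0249 to 0.0426. The call of CS was lost without any 1 library, that of ACO1 without any 1 library other than TFCP2L1 replicate 2, and that of ME3 without replicate 1 of either group or TFCP2L1 replicate 2.

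Among 32 tested regulators of lipogenesis 3 fell and 1 rose. INSIG1, which holds SREBP in the endoplasmic reticulum and is itself an SREBP target, fell from 183 ± 9.09 to 128 ± 10.4 CPM (edgeR adjusted p = 0.000407). PRKAG2, a subunit of the kinase AMPK that inhibits acetyl-CoA carboxylase, fell from 68.5 ± 2.91 to 43.6 ± 4.95 CPM (edgeR adjusted p = 0.000180). The coactivator gene PPARGC1B rose from 11.1 ± 1.15 to 16.7 ± 1.23 CPM (edgeR adjusted p = 0.00435). The third gene to fall was CEBPB (-0.29 ± 0.07), named after its value was seen, whose call was lost without vector replicate 1 or 3.

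Of 36 further glycerolipid and phospholipid genes 1 fell and 1 rose. PLPP3, a phosphatase of lysophosphatidic and phosphatidic acid, fell from 43.0 ± 1.79 to 19.7 ± 0.607 CPM (edgeR adjusted p = 4.65e-07). GPAT3, an acyltransferase of the endoplasmic reticulum, rose from 37 ± 3.82 to 49.0 ± 7.97 CPM (edgeR adjusted p = 0.0334), and it was no longer called on leaving out any 1 library other than TFCP2L1 replicate 3. Of 23 further lipid droplet and lipolysis genes 3 fell and 1 rose. LIPG, endothelial lipase, fell from 15 ± 0.450 to 3.52 ± 0.763 CPM and LDAF1, a partner of seipin in droplet assembly, from 64.3 ± 9.81 to 32.4 ± 4.66 CPM (edgeR adjusted p = 1.97e-07 and 6.64e-05). LIPE, hormone-sensitive lipase, rose from 2.81 ± 0.458 to 4.58 ± 0.388 CPM (edgeR adjusted p = 0.0270), and it was no longer called when replicate 1 or 3 of either group was left out. The other gene to fall, also named after its value was seen, was G0S2, an inhibitor of PNPLA2, at 2059 ± 77.2 and 1535 ± 172 CPM (edgeR adjusted p = 0.00371).

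In fatty acid oxidation 0 of 28 tested genes were called by edgeR. CPT1A, which admits long chains to mitochondria and is inhibited by malonyl-CoA, was at 24.5 ± 3.16 and 30.9 ± 1.63 CPM (edgeR adjusted p = 0.0554), and CRAT, carnitine acetyltransferase, at 32.1 ± 2.59 and 26.1 ± 1.61 CPM (0.0614). Both passed the threshold in DESeq2 (adjusted p = 0.0363 and 0.0494). They were the 2 genes of this list with an unadjusted p under 0.05.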

How the data were processed

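Per the labels' protocols, total RNA was isolated with TRIzol and sequenced from VAHTS Universal V6 libraries. The submitters' processing notes name fastp, HISAT2, HTSeq and GRCh38.p13 without versions. Whether strand was used in counting was not given. The authors deposited read counts per gene and FPKM values. For the 39 members, the gene length implied by count, FPKM and library total was the same across libraries within 0.001%. ELOVL2, with reads in 1 library, passes this check without a comparison.

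The counts were tested with edgeR 4.0.16 (R 4.3.3) on all genes that passed filterByExpr, 14431 of 21173, with TMM scaling, robust dispersion and the quasi-likelihood test of TFCP2L1 against vector. P-values were adjusted by Benjamini-Hochberg over all tested genes, and a gene was called at an adjusted p under 0.05. The SE was taken as the absolute log2 fold change over the root of the F statistic. CPM values use TMM library sizes. The newer quasi-likelihood method of edgeR (legacy=FALSE) was taken to match an earlier processing of these data, after the default and other settings had been run and their results seen. It turned ACLY into a call. The script was tested on simulated counts, where the criterion for the largest fold size was limited to genes of at least 1 CPM after a first version fell short. Alternatives used DESeq2 1.42.0, limma 3.58.1, other scalings and filters, and omitted libraries.

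The members and lists were chosen with earlier results of these data known. Named genes were TFCP2L1, all 39 members and, per pathway list, up to 3 called genes with the largest changes, or, where fewer than 2 were called, the 2 with the smallest p. Gene positions are GENCODE v29 (GRCh38). Promoter windows of 250 bases are RefSeq's (GRCh38.p14). HILPDA, AGPAT5, DGAT2, LPIN3, FASN and DGAT1 were not matched there. Of 12 motif patterns searched 5 are shown. The others were the sterol response element with a leading A (0.125% of all windows, 0% of member windows), TCACNTGA (3.2%, 1.92%), CNNG repeated after 6 bases (68.6%, 86.5%), AGGTCA repeated after 4 bases (0.0142%, 0%), GGG and CC 5 bases apart (54.4%, 75%), CCAG repeated after 5 bases (3.21%, 1.92%) and ATTGGC (13.8%, 25%).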

Additional observations from a re-analysis of the deposited data

How the results depend on the processing

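Over all alternatives run, 631 of 663 member values kept their direction, and 0 of the reversals were in called members. FADS3, ACSL1, ACACB, ACSL4, SCD and FADS1 stayed called in every alternative, and the other 5 were lost in at least one. Members called lower numbered 11, and 10 with RLE size factors, library totals or the older edgeR method (ACLY lost each time, adjusted p = 0.0540, 0.0849 and 0.0540), 12 with DESeq2 or limma-voom, and 8 with limma on log2(FPKM + 1) or log2(FPKM + 0.1). The older method, run before the newer one was taken, called 668 genes higher and 1002 lower, against 676 and 1016. Leaving out 1 library at a time gave 294 to 763 genes higher, 654 to 1108 lower, 0 to 1 members higher, 6 to 11 members lower, and 1 to 5 higher and 7 to 13 lower in the 6 other lists, against 5 and 11. In those lists library totals gave 8 higher, and limma on FPKM gave 3 higher and 7 lower with either pseudocount.

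The labels do not state whether same-numbered libraries were paired. Their deviations from the group means correlated at 0.07, -0.16 and -0.12, too few values to decide it. Differently numbered libraries ran from -0.11 to 0.22, the highest being vector replicate 2 with TFCP2L1 replicate 3. A fit with the replicate number as a block called 331 genes higher and 665 lower, 7 members lower, and 1 gene higher and 7 lower in the 6 lists. ACLY, SCD5, SREBF1 and LPIN3 were the members lost (edgeR adjusted p = 0.15, 0.0631, 0.0748 and 0.0836).

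Of uncalled members 12 changed sign, with the cause not tested. Omitting 1 library gave ranges of -0.068 to 0.020 for ELOVL5, -0.000893 to 0.18 for ELOVL6, -0.016 to 0.065 for ACSL3, -0.67 to 0.11 for ACSL5, -0.042 to 0.10 for AGPAT2, -0.014 to 0.22 for AGPAT5, -0.040 to 0.004152 for LPIN1, -0.047 to 0.23 for DGAT1, -0.077 to 0.037 for PLIN2, -0.13 to 0.003160 for PLIN3, -0.18 to 0.037 for PNPLA2 and -0.063 to 0.014 for HILPDA. With library totals LPIN1, PLIN2 and HILPDA were at 0.011, 0.0115 and 0.000058, and on FPKM at 0.011 and 0.011, 0.008731 and 0.008796, and 0.000166 and 0.000173 with the 2 pseudocounts. Without vector replicate 2 and TFCP2L1 replicate 3 together AGPAT2, LPIN1 and PLIN2 were at -0.014, 0.000109 and 0.019. The median log2 fold change of all tested genes was 0.0292 with library totals, against 0.0025 with TMM. ACSL5 and MLXIPL had too few reads for a precise fold change.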
